A study of Rattus norvegicus with 33 samples.

Results

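The genes described here were those of the ovarian steroid receptors and of products made under their control in the rat mammary gland. They were Esr1 (estrogen receptor alpha), Pgr (progesterone receptor), Greb1 (an estrogen-induced gene), Tnfsf11 (RANKL, a secreted or membrane-bound signal of the TNF family) and Cited1 (a transcriptional co-activator). They were listed by symbol, and for each the probe set annotated to that symbol alone was taken. Of the 5 listed genes, 4 had such a probe set, each exactly 1, and Greb1 was not analysed here. The array held 18166 genes with a probe set of a single symbol, of which 10840 passed a filter on low values and were tested. All 4 measured genes were among them.

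The samples were 33 arrays of whole mammary tissue from female Sprague-Dawley rats at 6 stages. There were 10 pre-pubertal glands at postnatal day 21, 5 peri-pubertal glands at day 42, 5 pubertal glands at day 63, 3 glands from the end of lactation at day 146 (lactation day 28), 5 glands of parous rats and 5 of nulliparous rats of the same age, both at day 181. All animals were vehicle controls given olive oil by gavage. Tissue came from the fifth pair of caudal glands. Rats of 1 stage were killed on a single day, at whatever point of the estrous cycle each was in, so day of collection and stage cannot be told apart. The pre-pubertal rats were still housed with their dams. The series design gives 10 pre-pubertal animals where the treatment text gives an equal number for every stage, and only arrays are counted here.

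The arrays came in 3 batches. Batch 1 lacked only the lactating glands, batch 2 held pre-pubertal, peri-pubertal and pubertal arrays and all 3 lactation arrays, and batch 3 held 2 nulliparous and 2 parous arrays. The 4 arrays of batch 3 were also the 4 whose RNA was extracted with the Zymo kit, used for glands rich in fat. Stage was therefore tested in a model with a batch term (limma, Benjamini-Hochberg adjustment over the 10840 genes, called at an adjusted p under 0.05). The p-values measure the spread between these arrays. In whole tissue, fewer cells of a type and less RNA per cell cannot be told apart.

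Estrogen receptor alpha is carried by a subset of luminal epithelial cells, the hormone-sensing cells, and by stromal cells, and when bound by estrogen it raises transcription of Pgr among other genes. Progesterone acting through its receptor makes the hormone-sensing cells release signals such as RANKL and WNT4, and estrogen makes them release amphiregulin, so that neighbouring cells without receptors divide. RANKL binds RANK on those neighbours, and the decoy receptor osteoprotegerin blocks it. RANKL is also made by lymphocytes and by the stroma of lymph nodes, where it takes part in lymph node formation. CITED1 binds estrogen receptor alpha as a co-activator and is made in the same luminal cells.

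The promoters of Pgr and Cited1 are shown because these 2 genes gave the pattern described furthest on. Each run holds the 250 bases before the start of the gene in RefSeq, build GRCr8, written along the gene's own strand, 5′ to 3′. The window of Pgr is chr8:14354148-14354397 on the plus strand, and that of Cited1 is chrX:71395024-71395273 on the minus strand. Capitals mark GC boxes (GGGCGG, on either strand) and the 5-base core of the estrogen response element (GGTCA, on either strand, so TGACC when it lies on the other).
Pgr: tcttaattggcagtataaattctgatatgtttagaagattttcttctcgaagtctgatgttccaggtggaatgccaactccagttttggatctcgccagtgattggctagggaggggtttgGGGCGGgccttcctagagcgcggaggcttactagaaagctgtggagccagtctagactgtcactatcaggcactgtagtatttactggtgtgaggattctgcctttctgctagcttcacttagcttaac
Cited1: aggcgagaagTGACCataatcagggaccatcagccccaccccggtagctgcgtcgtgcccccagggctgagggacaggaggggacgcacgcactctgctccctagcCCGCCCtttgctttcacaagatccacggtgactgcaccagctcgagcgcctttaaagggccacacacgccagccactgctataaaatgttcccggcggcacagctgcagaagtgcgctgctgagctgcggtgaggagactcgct
Counted from 0 at the first base of the transcript, the core lay at position -240 in Cited1, and it was not found in the windows of 300 bases around the starts of Esr1, Pgr and Tnfsf11. It occurs in 40.2% of the 27457 rat promoters of that length, so a match is common. A GC box lay at -129 in Pgr and at -144 and 0 in Cited1, the last just past the printed run, and 34.9% of promoters hold one. The full estrogen palindrome GGTCANNNTGACC (7 promoters, 0.0255%), the progesterone receptor palindrome GNACANNNTGTNC (0.422%) and the AP-1 element TGANTCA (7.33%), each read on both strands, were in none of the 4 windows. GC boxes and AP-1 elements were added to the search after the sequences had been read. A match is a description of letters and not a binding site.

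Across the 6 stages Pgr, Tnfsf11 and Cited1 differed (adjusted p = 9.17e-07, 0.000607 and 0.000333, limma's F test) and Esr1 did not pass (adjusted p = 0.252). Tnfsf11 passed the filter on low values through the pre-pubertal stage alone and is left out of the count. Of the other 3 genes, 2 differed between stages, near the 66.1% of all genes tested. What sets the 4 genes apart from each other is which stage was high or low. A dashed level in the plot of the values marks 7.71, the median of all genes' mean log2 signal, which a gene had to exceed in 3 arrays to be tested.

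**Figure D1:**
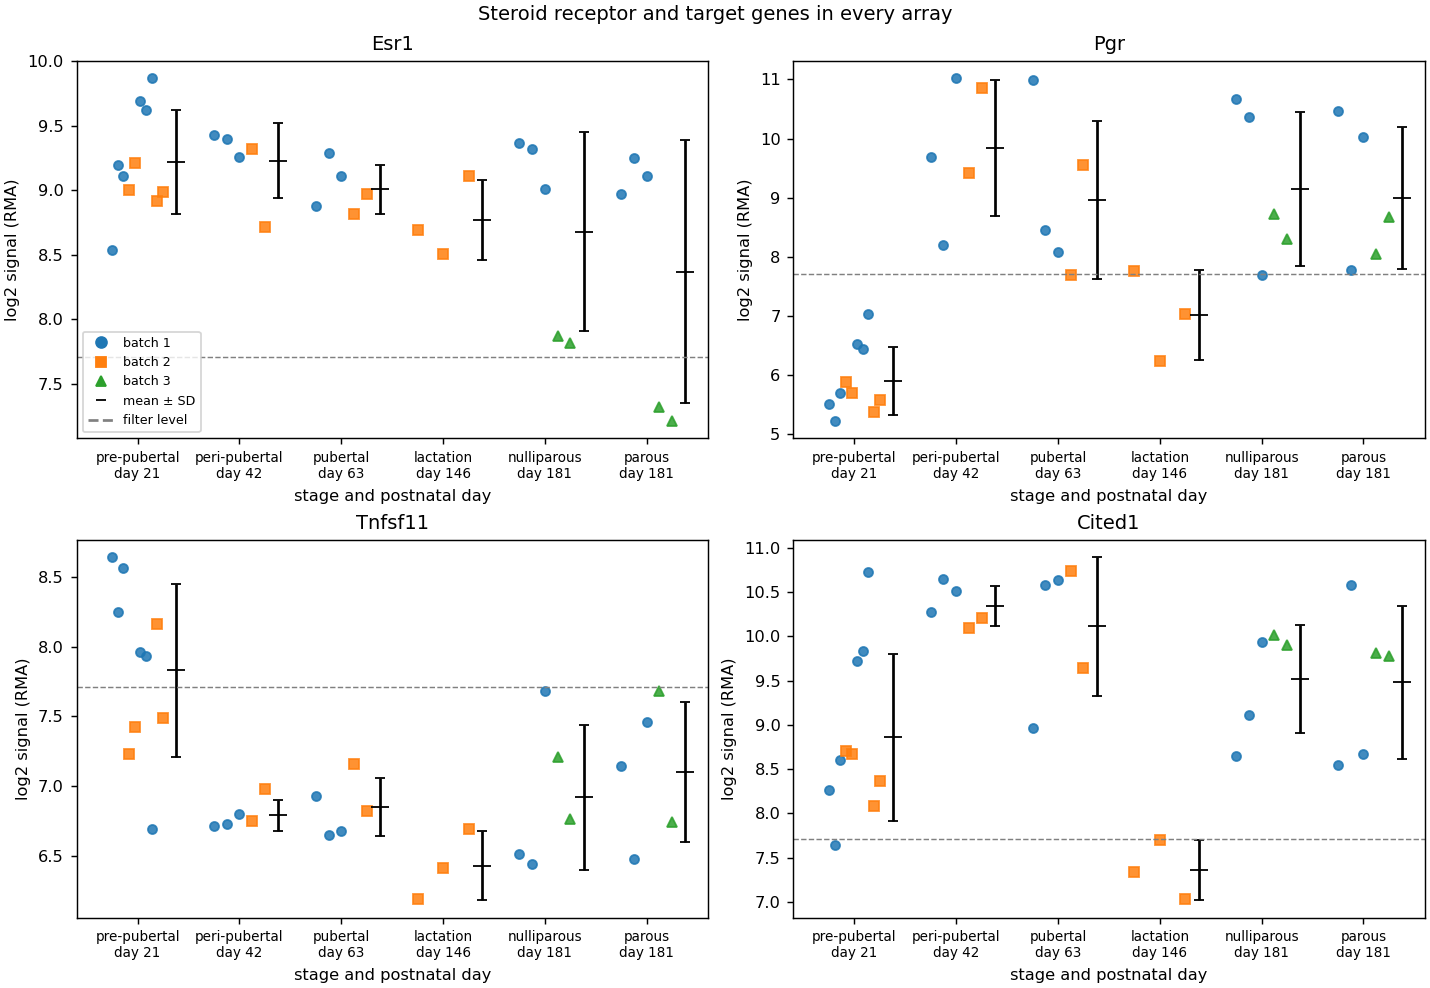
Log2 signal of Esr1, Pgr, Tnfsf11 and Cited1 in each of the 33 arrays by stage and postnatal day, with colour and shape for the batch, a bar for the mean ± SD of the stage and a dashed line at the filter level. Pgr lay under the line in all 10 pre-pubertal arrays, and Cited1, at 7.03 to 7.70, in the 3 lactation arrays. The low Esr1 values of nulliparous and parous glands were those of batch 3.

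Esr1 was the steady member of the set. Its 10 pre-pubertal arrays ran from 8.54 through a median of 9.15 to 9.87 log2 units. The peri-pubertal arrays read 9.43, 9.40, 9.26, 9.32 and 8.72, and the pubertal arrays 8.88, 9.29, 9.11, 8.82 and 8.97. The stages overlapped throughout.

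In lactation Esr1 read 8.69, 8.51 and 9.11. The nulliparous arrays read 9.37, 9.32 and 9.01 in batch 1 and 7.87 and 7.82 in batch 3. The parous arrays read 8.97, 9.25 and 9.11 in batch 1 and 7.32 and 7.21 in batch 3. The low values in adult glands were thus all in the batch extracted with the other kit, and within batch 1 parous glands stood at 9.11 ± 0.14 and nulliparous glands at 9.23 ± 0.19 (SD, n = 3 each). The fitted difference of batch 3 from batch 1 was -1.62 ± 0.17 (SE; adjusted p = 1.23e-09, limma), against a median absolute batch difference of 0.759 over all genes. Kit, batch and the fat content of the gland cannot be told apart for these 4 arrays.

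None of the 6 comparisons between stages called Esr1. With batch terms removed its stage means ran from 9.02 in parous to 9.34 in peri-pubertal glands, and every stage overlapped its neighbour in that order. The comparison of lactation with puberty gave -0.07 with a 95% interval from -0.50 to 0.36, and that of peri-pubertal with pre-pubertal glands gave 0.01 (-0.29 to 0.31). Among the 20 peri-pubertal, pubertal, nulliparous and parous arrays Esr1 went with the mean of the luminal epithelium list (Pearson r = 0.70, Spearman rho = 0.71, adjusted permutation p = 0.00134 and 0.00434 over 28 relations). Without the 2 arrays farthest from the median r was 0.62, in the 12 arrays of batch 1 it was 0.58 (unadjusted permutation p = 0.0483), and with stage and batch terms removed it was 0.58. Esr1 also ran opposite to the T cell list (r = -0.50, rho = -0.65, adjusted permutation p = 0.0578 and 0.00857). Against Tnfsf11 it gave r = -0.39 and rho = -0.59 (adjusted permutation p = 0.131 and 0.0197). The pooled values include the batch 3 arrays, low in Esr1.

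Pgr, whose product passes on the progesterone signal, was low in the youngest glands and higher in the later non-lactating ones. The 10 pre-pubertal arrays ran from 5.22 through 5.70 to 7.03, all under the filter level. The peri-pubertal arrays read 9.69, 8.20, 11.02, 9.42 and 10.86. No array of one stage reached the range of the other.

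The rise from day 21 to day 42 was 15.4-fold (log2 difference 3.94 ± 0.53 SE, 95% interval 2.87 to 5.02, adjusted p = 2.44e-06, limma). Of the 3 genes other than Tnfsf11, whose passing of the filter rested on the pre-pubertal stage, 2 were called in this comparison, against 32.5% of all genes. Arrays of the 2 stages did not overlap for 1 of these 3, Pgr, against 5.01% of all genes. The difference was 3.56 within batch 1 (adjusted p = 0.00796) and 4.51 within batch 2 (0.0014). All pre-pubertal signals lay at the low end of the array, where arrays compress differences.

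The mean of 15 luminal epithelium markers rose over the same interval, from a range of 6.57 to 9.52 to one of 9.37 to 10.07, and all 15 markers were called higher. With that mean as a covariate the Pgr difference was 3.28 (adjusted p = 0.0174). With the mean of the white adipocyte list, which was lower at day 42, it was 6.25 (adjusted p = 2.87e-06).

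From day 42 on Pgr was the most scattered of the 4 genes, and its day-42 arrays already lay up to 2.82 log2 units apart. The pubertal arrays read 10.99, 8.46, 8.09, 7.69 and 9.55, the nulliparous arrays 10.67, 10.37, 7.70, 8.72 and 8.31, and the parous arrays 10.47, 7.77, 10.03, 8.04 and 8.67. Single arrays of 1 stage differed by 2.70 to 3.30 log2 units in these 3 stages. The rats were at unknown points of the estrous cycle, and its part in this scatter was not tested. No comparison among peri-pubertal, pubertal, nulliparous and parous glands called Pgr. The difference between parous and nulliparous glands was -0.16 (95% interval -1.40 to 1.08), and that between pubertal and peri-pubertal glands -0.88 (-2.12 to 0.36). Estimated array weights turned the latter into -1.70 (adjusted p = 0.0116).

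The 3 lactation arrays of Pgr read 7.76, 6.24 and 7.04, a mean of 7.01 ± 0.76 (SD). All but the highest lay below every pubertal, nulliparous and parous array. The difference from pubertal glands, -1.80 ± 0.75, missed the threshold (95% interval -3.33 to -0.27, adjusted p = 0.0544). Against nulliparous glands, which share no batch with lactation, it was -2.33 (adjusted p = 0.0353).

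The Pgr difference between lactation and puberty lay on either side of the threshold by setting. Within batch 2 it was -1.61 (adjusted p = 0.064), with array weights -1.27 (0.199), and in a fit of these stages alone -1.61 (0.189). Leaving out each array in turn gave -2.23 to -1.42 (adjusted p = 0.0286 to 0.207), and it passed without pre-pubertal replicate 8, peri-pubertal replicate 3, pubertal replicate 3 or 4, lactation replicate 1, nulliparous replicate 3 or parous replicate 2. With the luminal mean as covariate it was -2.23 (adjusted p = 0.0355). With the adipocyte mean as covariate the sign turned (0.80, adjusted p = 0.555), where the adipocyte list lay at 9.19 to 9.46 in lactation and 10.16 to 10.43 in puberty. In order of the mean with batch terms removed, Pgr stood at 5.99 in pre-pubertal, 7.25 in lactating, 9.05 in pubertal, 9.42 in parous, 9.58 in nulliparous and 9.93 in peri-pubertal glands, and every neighbour overlapped the next.

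Amphiregulin (Areg), the ligand that carries the estrogen signal to neighbouring cells, rose from day 21 to day 42 by 1.52 ± 0.42 (2.88-fold, adjusted p = 0.00584). It stood at 6.30 to 6.67 in lactation and at 7.82 to 11.34 in parous glands, a called difference of 2.44 ± 0.68 (adjusted p = 0.00705). All lactation arrays of Areg lay under the filter level, and only 1 of its 10 pre-pubertal arrays lay above it. The highest Areg values were those of batch 3, with 11.15 and 11.31 in nulliparous and 10.64 and 11.34 in parous glands. Prlr, the prolactin receptor, rose 4.92-fold to day 42 (2.30 ± 0.22, adjusted p = 1.41e-08) and fell by 1.43 in lactation (SE 0.31, adjusted p = 0.000517).

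Over the 33 arrays with batch terms removed, the 5 genes most like Pgr were Clca5 (r = 0.94), Aqp5 (0.92), Stc2 (0.92), Pigz (0.91) and Prlr (0.90). With stage removed as well they were Pigz (0.90), Stc2 (0.89), Dhrs7 (0.87), Areg (0.86) and Mfap3l (0.85). These are descriptions over arrays that share stage and batch, chosen from all genes for their likeness.

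Cited1 had its highest mean at day 42 and its lowest in lactation. The pre-pubertal arrays ran from 7.65 through 8.64 to 10.73. The peri-pubertal arrays read 10.27, 10.65, 10.51, 10.09 and 10.20, within 0.57 of each other. The highest pre-pubertal array lay above them all and the rest below.

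The rise was 2.8-fold (1.48 ± 0.38, adjusted p = 0.00338, limma). It was 1.69 within batch 2 (adjusted p = 0.00763) and 1.35 within batch 1, where it missed the threshold (0.13). Cited1 followed the luminal list in the pre-pubertal arrays (r = 0.94, rho = 0.99, adjusted permutation p = 0.00021 and 0.00028; r = 0.89 without the 2 farthest arrays, and 0.96 in the 6 arrays of batch 1). With the luminal mean as covariate the difference was -0.14 (adjusted p = 0.944), with the T cell mean it was 0.89 (0.196) and with the adipocyte mean 1.11 (0.214). With these covariates 290, 1701 and 3339 of all genes were called, against 3518 without.

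In lactation Cited1 was low while luminal markers were high. The 3 lactation arrays of Cited1 read 7.34, 7.70 and 7.03, against 8.97, 10.58, 10.63, 10.74 and 9.64 in puberty. Every lactation array lay below every pubertal one. Cited1 fell by 2.52 on the log2 scale (5.75-fold, SE 0.54, 95% interval -3.63 to -1.42, adjusted p = 0.000463), the 1 call among the 4 genes against 40.8% of all genes. Arrays failed to overlap for this 1 gene of 4, against 35.9% of all genes. Of the 4, Tnfsf11 lay under the filter level in every array of both stages.

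Within batch 2, which holds all the lactation arrays, the log2 difference was -2.83 (adjusted p = 0.000154). Meanwhile the luminal list stood higher in lactation (10.37 to 10.90) than in puberty (9.66 to 10.13), with 7 of its 15 markers called up and none down. With that mean as covariate the Cited1 difference was -3.56 (adjusted p = 2.79e-07). Against nulliparous glands at day 181, which shared no batch with lactation, it was -1.52 and missed the threshold (adjusted p = 0.0564).

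The nulliparous arrays of Cited1 read 8.65, 9.11, 9.93, 10.01 and 9.90, and the parous arrays 8.55, 10.58, 8.67, 9.81 and 9.78. The stages overlapped almost wholly, and the difference was -0.05 (95% interval -0.94 to 0.85). Nulliparous glands stood 2-fold below pubertal ones without passing the test (SE of the log2 difference 0.49, adjusted p = 0.281). Among the alternatives run it passed with estimated array weights (log2 difference -1.41, adjusted p = 0.00848). With batch terms removed the order ran 7.75 in lactating, 9.02 in pre-pubertal, 9.22 in parous, 9.27 in nulliparous, 10.27 in pubertal and 10.50 in peri-pubertal glands, each overlapping the next.

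Markers of hormone-sensing luminal cells, from a list that holds none of the 4 genes, moved at the same stages. Of its 9 tested genes, 8 were called up at day 42 (median 1.18 against 0.00 over all genes), where 32.5% of all genes were called in either direction. The rise was not particular to this list. All 15 luminal epithelium markers (median 1.53), 4 of 8 basal and 5 of 12 fibroblast markers were called up there too. Foxa1, Wnt4 and Gata3, given below, are themselves in the hormone-sensing list, as are Areg and Prlr. In lactation 7 of 9 were called down and none up (median -1.33 against 0.06), where 40.8% of all genes were called. Markers of other cell types moved too: all 12 fibroblast markers (median -1.21) and 10 of 12 white adipocyte markers (median -0.85) were called down in lactation as well, and their part in the falls given here was not tested. Foxa1, which opens chromatin for the estrogen receptor, rose by 1.47 ± 0.23 (adjusted p = 1.81e-05) and fell by 1.75 in lactation (SE 0.33, adjusted p = 0.000102). Wnt4 rose by 0.78 ± 0.15 (adjusted p = 0.000217) and fell by 0.74 in lactation (SE 0.21, adjusted p = 0.00639). All lactation arrays of Wnt4 lay under the filter level. Gata3, a luminal regulator, rose by 1.55 ± 0.21 at day 42 (adjusted p = 3.39e-06), and its lactation difference of -0.45 ± 0.30 did not pass (0.243).

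Of the other CITED genes, Cited2 rose by 0.72 ± 0.17 in lactation (adjusted p = 0.00158), and Cited4 differed by 0.29 ± 0.38 (0.577). Of the 7 tested genes of the CITED family and its partners, 5 were called up at day 42 (median 1.15), among them the AP-2 factors Tfap2a (1.94 ± 0.26, adjusted p = 3.34e-06) and Tfap2c (1.66 ± 0.33, adjusted p = 0.000304). The share called over all genes at day 42 was 32.5%, in either direction. In lactation Tfap2b fell by 1.81 (SE 0.53, adjusted p = 0.00747) and Cited2 was the only gene of the list called up. Whether Cited1 and Cited2 differed in their response was not tested.

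**Figure D2:**
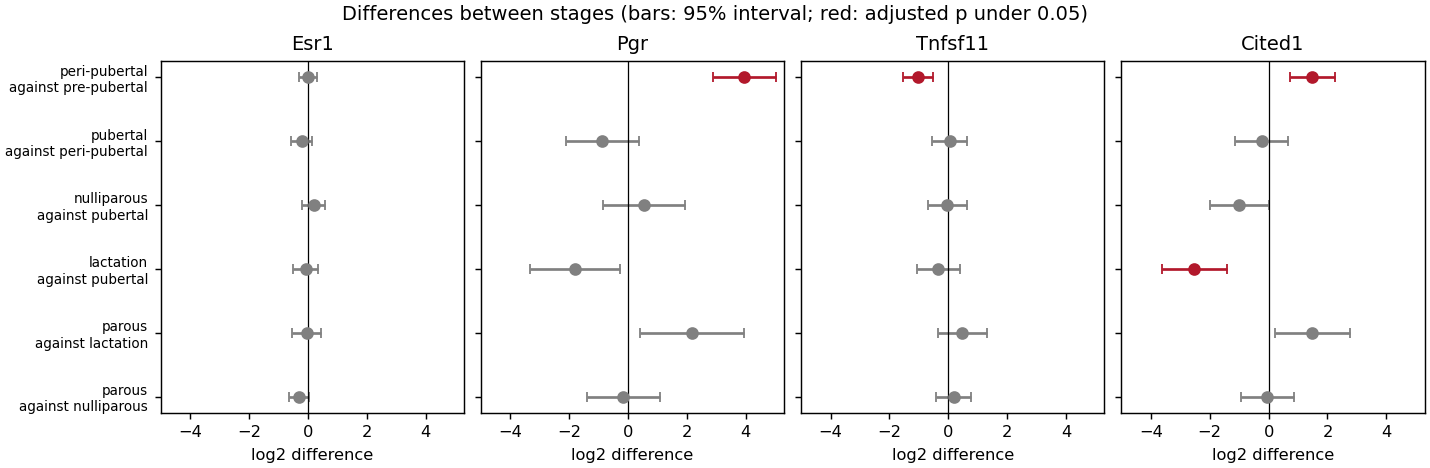
Log2 differences between stages for Esr1, Pgr, Tnfsf11 and Cited1 in the 6 comparisons, as points with 95% intervals from the model with a batch term, with red for an adjusted p under 0.05. The 4 called differences are Pgr at 3.94, Cited1 at 1.48 and Tnfsf11 at -1.04 between day 21 and day 42, and Cited1 at -2.52 in lactation.

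The genes most like Cited1 over the 33 arrays with batch terms removed were Igsf10 (r = 0.89), Capn6 (0.88), Foxa1 (0.87), Cand2 (0.87) and Tmem150c (0.84). With stage removed as well they were Mia (0.85), Dcakd, Dynlt1 and Nectin1 (0.82 each) and Tmem54 (0.81). Those most like Esr1 were Alad, Mpst, B4gat1, Rhbg and Abhd14a, at 0.66 to 0.68, lower than for the other 3 genes. With stage removed they were Cyp2t1 (0.79), Nol3, Cbr1, Marchf8 and Mapk8ip1 (0.78 each).

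Pgr and Cited1 moved together in pre-pubertal glands and apart in later ones. In the 10 pre-pubertal arrays the pair gave r = 0.99 and rho = 0.98 (adjusted permutation p = 0.000187 and 0.00028 over 28 relations, the raw p for r being 1e-05, the smallest the permutations can give). Without the 2 farthest arrays r was 0.99, and in the 6 arrays of batch 1 it was 1.00. All 10 pre-pubertal arrays had Pgr under the filter level, where signals carry little information. Pgr and Cited1 both followed the luminal list in the 10 arrays, Pgr at r = 0.93 (rho = 0.96) and Cited1 at 0.94, and the part of luminal content in the relation was not tested. The relation was not confined to this pair. Esr1 went with Pgr (r = 0.84, rho = 0.73) and with Cited1 (r = 0.83, rho = 0.75) in the same arrays. The adjusted permutation p was 0.00906 for each r and 0.0468 for each rho. For all 3 genes, replicates 6 to 8 of batch 1 lay above its replicates 1 to 3. The permutations take the 10 arrays as separate units, and whether they are 10 animals was not settled.

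In the 20 peri-pubertal, pubertal, nulliparous and parous arrays the pair gave r = -0.59 and rho = -0.52 (raw permutation p = 0.00733 and 0.0201, adjusted 0.0205 and 0.0468). Without the 2 farthest arrays r was -0.69, and in the 12 arrays of batch 1 it was -0.67; batches 2 and 3 hold 4 of these arrays each, too few for a value. With stage and batch terms removed r was -0.81. The relation was looked for after the values had been seen, and the difference between the 2 sets of arrays was not itself tested.

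The arrays show where the inverse relation lies. Pubertal replicate 1 had a Pgr signal of 10.99, the highest of its stage, and a Cited1 signal of 8.97, the lowest. Nulliparous replicates 1 and 2 had Pgr at 10.67 and 10.37 with Cited1 at 8.65 and 9.11, and parous replicates 1 and 3 had Pgr at 10.47 and 10.03 with Cited1 at 8.55 and 8.67. In these 3 stages the arrays of batch 1 with high Pgr were those with low Cited1. The peri-pubertal arrays departed from this, with Pgr at 11.02 and 10.86 beside Cited1 at 10.51 and 10.20. In the 20 arrays pooled, r with the luminal list was 0.07 for Pgr and 0.12 for Cited1 (adjusted permutation p = 0.794 and 0.661). For Cited1 it was 0.33 without the 2 farthest arrays and 0.34 with stage and batch terms removed. In batch 1 it was 0.43 (unadjusted permutation p = 0.165). The same 3 values for Pgr were 0.06, -0.15 and -0.17.

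**Figure D3:**
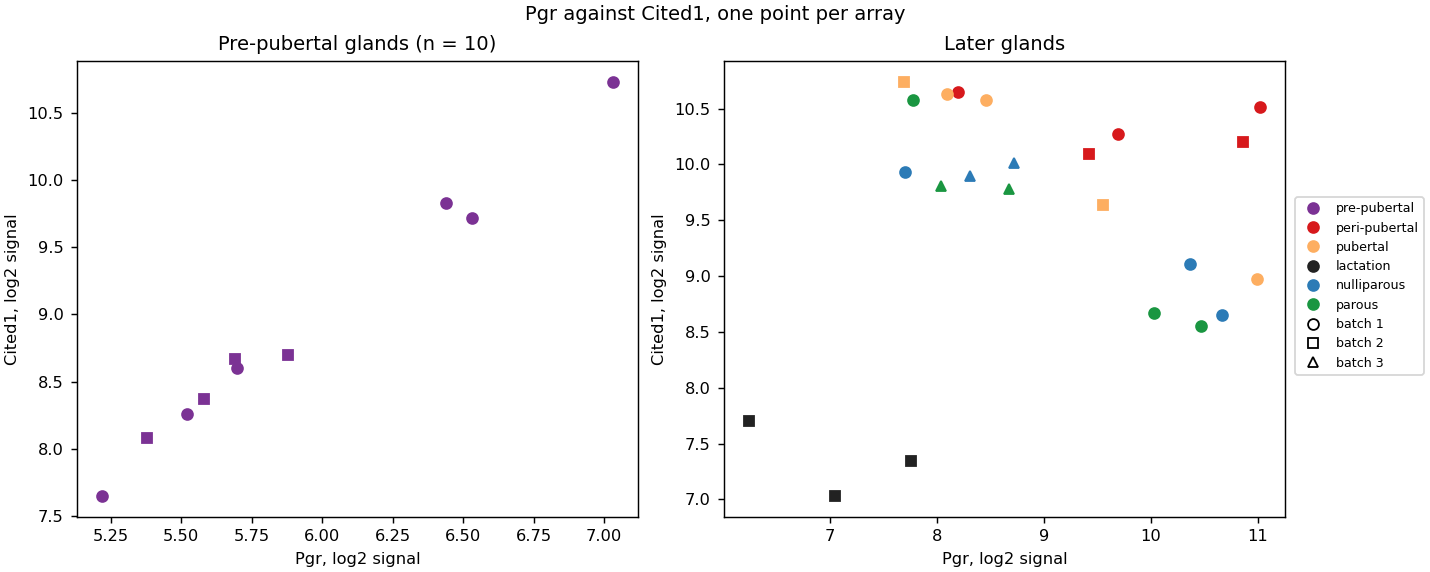
Cited1 against Pgr, both as log2 signal, with 1 point per array, colour for the stage and shape for the batch. The 10 pre-pubertal arrays on the left, all with Pgr under the filter level, climb along a line (r = 0.99). On the right the 20 arrays of non-lactating stages slope down (r = -0.59) and the 3 lactation arrays sit low on both axes.

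Tnfsf11 was highest in the youngest glands. Its pre-pubertal arrays ran from 6.69 through 7.95 to 8.64, and 6 of them were the only arrays of the study above the filter level. The peri-pubertal arrays read 6.71, 6.73, 6.80, 6.75 and 6.98, all under that level. A gene that passes the filter through 1 stage alone was selected for being high there, so its call adds nothing to the count of members that changed.

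The difference of day 42 from day 21 was -1.04 ± 0.25 (adjusted p = 0.00207, limma), and 0.00267 was the adjusted p with no filter, over all 18166 genes. All day-42 signals and some of the day-21 signals were under the filter level, so no fold is given. It was -1.26 within batch 1 (adjusted p = 0.0231) and -0.71 within batch 2, where it missed the threshold (0.136). T cell markers moved with it: 10 of 11 were called lower at day 42 (median -2.17), and their mean ran from 6.70 to 10.17 in pre-pubertal and from 6.62 to 7.96 in peri-pubertal arrays. All 8 B cell markers and 7 of 8 markers of lymph node stroma were called lower as well. With the T cell mean as covariate the Tnfsf11 difference was -0.08 (adjusted p = 0.776), and with the luminal mean -0.17 (0.899). Those covariates left 1701 and 290 of all genes called, against 3518 without.

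Tnfsf11 followed the T cell list. The relation had r = 0.90 and rho = 0.89 in the 10 pre-pubertal arrays (adjusted permutation p = 0.00201 and 0.00577), 0.72 without the 2 farthest arrays and 0.96 in batch 1. It had r = 0.85 and rho = 0.69 in the 20 later non-lactating arrays (0.000187 and 0.00635), 0.71 without the 2 farthest, 0.83 in batch 1 and 0.92 with stage and batch terms removed. In the same 20 arrays Tnfsf11 ran opposite to the luminal list (r = -0.59, rho = -0.66, adjusted permutation p = 0.0179 and 0.00808), with r = -0.81 in batch 1. All 20 of these arrays had Tnfsf11 under the filter level. The pre-pubertal array with the lowest Tnfsf11, 6.69, was the one with the lowest T cell mean, 6.70. It also had the lowest B cell mean (6.56) and the lowest lymph node stroma mean (8.07) of its stage. Tnfsf11 was not correlated with those lists, so whether the relation is particular to T cells was not tested.

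**Figure D4:**
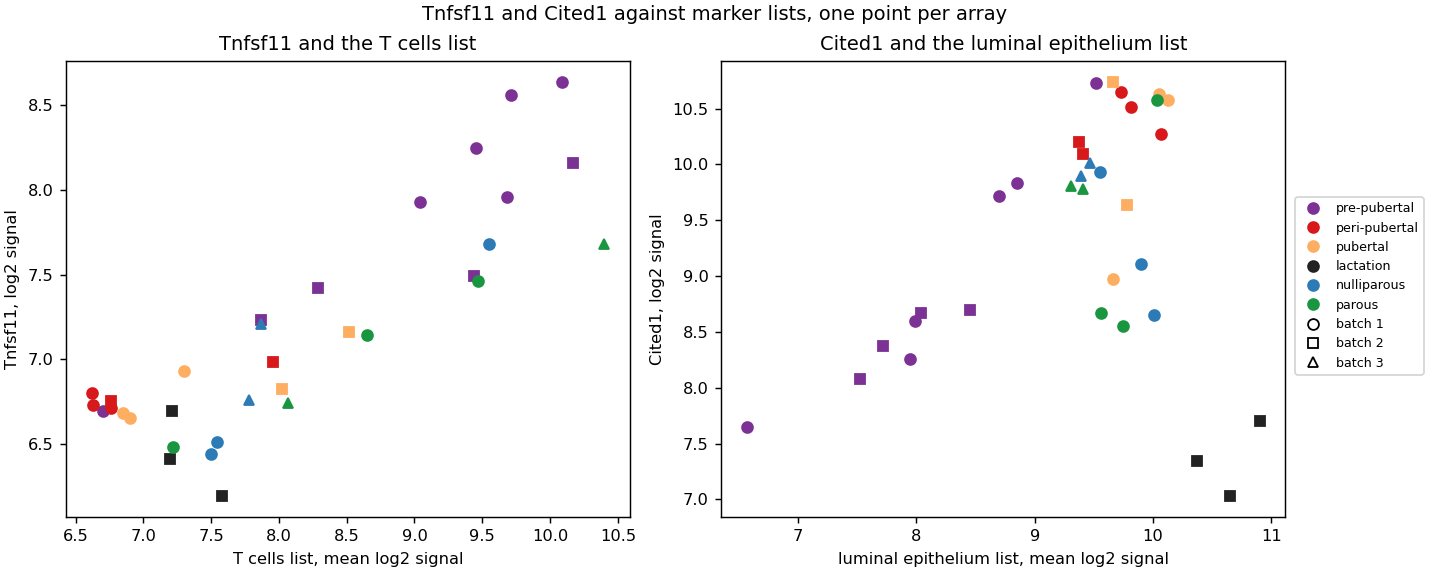
Tnfsf11 against the mean of the T cell list on the left, and Cited1 against the mean of the luminal epithelium list on the right, as log2 signal with 1 point per array, colour for the stage and shape for the batch. Tnfsf11 climbs with the T cell list in the pre-pubertal arrays and in the later non-lactating ones, and the 3 lactation arrays stand apart on the right with luminal means of 10.37 to 10.90 and Cited1 at 7.03 to 7.70.

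In the remaining stages Tnfsf11 stayed low and scattered. The pubertal arrays read 6.93, 6.65, 6.68, 7.16 and 6.82, and the lactation arrays 6.19, 6.41 and 6.69. The nulliparous arrays read 6.51, 6.44, 7.68, 7.21 and 6.76, and the parous arrays 7.14, 6.48, 7.46, 7.68 and 6.74. Signals under the filter level carry little information, and the model with a batch term called no change of Tnfsf11 among these stages. The largest of these changes was 0.48 ± 0.41 for parous against lactating glands (adjusted p = 0.382). With the adipocyte mean as covariate Tnfsf11 was called in lactation against puberty (-1.42, adjusted p = 0.0275), and in parous against lactating glands as given below. With batch terms removed the means ran 6.56 in lactating, 6.84 in peri-pubertal, 6.86 in nulliparous, 6.90 in pubertal, 7.04 in parous and 7.89 in pre-pubertal glands, and every neighbour overlapped.

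The genes most like Tnfsf11 with batch terms removed were Gal3st2 (r = 0.97), Grem1 (0.96), A2m (0.95), Spib (0.94) and Lhx8 (0.94). With stage removed as well they were Gal3st2, Capn13 and Fam78a (0.94 each) and Il21r and Ripor2 (0.93 each).

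The receptors of RANKL took courses of their own. Tnfrsf11a, which encodes RANK, rose by 0.55 ± 0.13 at day 42 (adjusted p = 0.00228) and by a further 0.55 ± 0.19 in lactation over puberty (0.021). It read 11.04 to 11.14 in the 3 lactation arrays, above every array of any other stage, and was lower again in parous glands (-0.68 ± 0.22, adjusted p = 0.0171). Tnfrsf11b, the decoy osteoprotegerin, rose by 0.90 ± 0.30 at day 42 (0.0199) and fell by 1.25 in lactation (SE 0.42, adjusted p = 0.0187), with lactation arrays from 6.98 to 9.01. Of 12 tested genes of the RANKL axis beside the ligand, 2 were called up and 4 down at day 42 (median -0.26 against 0.00), the latter with Cd40lg (-2.12 ± 0.54, adjusted p = 0.00337), itself a T cell product. The share called over all genes was 32.5%.

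Other targets were split. Of 14 tested estrogen targets beyond the listed genes, 8 were called up and none down at day 42 (median 0.54 against 0.00), including the protease Ctsd (0.65 ± 0.09, adjusted p = 3.96e-06), the cadherin Celsr2 (1.09 ± 0.16, 7.25e-06) and the potassium channel Kcnk5 (0.72 ± 0.13, 9.85e-05). In lactation 5 were up and 6 down (median -0.33 against 0.06), Ctsd rising by 0.94 ± 0.13 (adjusted p = 1.65e-06) and the growth factor Igf1, also made by stromal cells, falling (-1.28 ± 0.16, adjusted p = 3.9e-07). The fibroblast list mean lay at 9.67 to 10.15 in lactation and 11.23 to 11.54 in puberty, and its part in the fall of Igf1 was not tested. Of 12 progesterone targets 2 were up and 5 down at day 42 (median -0.08), with Elf5, the alveolar regulator, up by 2.06 ± 0.38 (0.00013) and Fkbp5 and Klf9, both also glucocorticoid targets, down (-1.15 ± 0.16, adjusted p = 5.94e-06, and -0.84 ± 0.16, 0.000157). In lactation 1 was up and 5 down (median -0.42). Beside these counts stand 32.5% of all genes called at day 42 and 40.8% in lactation, in either direction.

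Of 9 other steroid receptors measured, 6 were tested. Of these 6, 1 was up and 3 down at day 42 (median -0.16 against 0.00), and of 12 receptor partners 5 were up and 2 down (median 0.01). The share called over all genes was 32.5% there, in either direction. The glucocorticoid receptor Nr3c1 was lower in lactation than in puberty (-0.52 ± 0.11, adjusted p = 0.000484). The co-repressor Nrip1 was higher in lactation (0.39 ± 0.12, 0.0105), while the co-activator Ncoa3 differed by -0.03 ± 0.18 (0.925). The estrogen receptor beta gene Esr2 and Calca, a progesterone target, did not pass the filter.

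**Figure D5:**
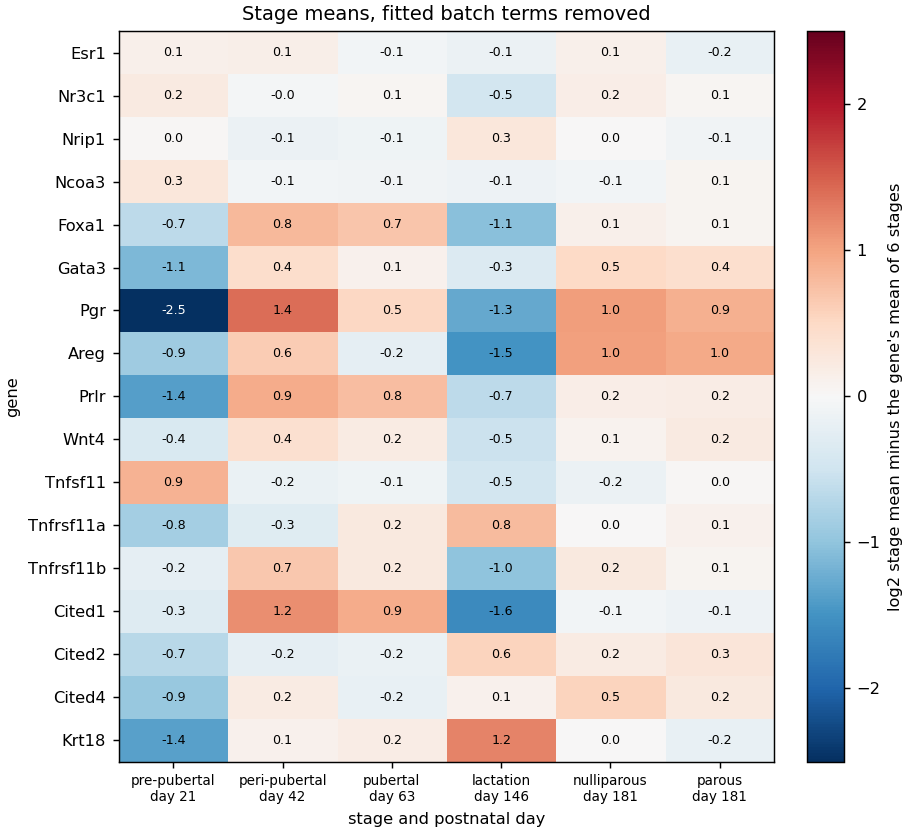
Stage means of the 4 genes and 13 related genes after removal of the fitted batch terms, as log2 difference from each gene's mean of the 6 stages, in columns by stage and postnatal day. Cited1, Foxa1 and Prlr are red at days 42 and 63 and blue in lactation, Esr1 stays near 0 throughout, and Tnfrsf11a and Krt18 are highest in lactation.

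After lactation no gene of the 4 was called against lactating glands. Pgr was 2.18 ± 0.86 higher in parous glands (95% interval 0.41 to 3.94, adjusted p = 0.0519) and Cited1 1.48 ± 0.62 higher (0.21 to 2.75, 0.0661), and for both genes every parous array lay above every lactation array in the deposited values. For Pgr that gap was 7.77 against 7.76, and with batch terms removed its lactation and parous arrays overlapped. The lactation arrays of Cited1 all lay under the filter level. The Pgr difference passed without pre-pubertal replicate 8, peri-pubertal replicate 3, pubertal replicate 1 or 4, lactation replicate 1, nulliparous replicate 3 or parous replicate 2 (1.79 to 2.78 over all arrays left out in turn, adjusted p = 0.0141 to 0.164). That of Cited1 passed without pre-pubertal replicate 8 or parous replicate 1 (0.99 to 1.73, adjusted p = 0.0216 to 0.214). Non-overlap held for 27.9% of all genes, and 33.1% were called. These stages share no batch, so the contrast rests on the stages that link batch 2 to the others. Of the hormone-sensing list 5 of 9 were called up in parous glands. With the adipocyte mean as covariate the Pgr difference was -0.03 (adjusted p = 0.985), and Tnfsf11 was the gene called (1.40, adjusted p = 0.0246).

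The other 3 comparisons called none of the 4 genes. Over all genes the share called was 1.23% for pubertal against peri-pubertal glands, 4.29% for nulliparous against pubertal glands and 0.0185% for parous against nulliparous glands. Parous and nulliparous glands, which share 2 batches, gave intervals for the 4 genes from -0.65 to 0.04 (Esr1), -1.40 to 1.08 (Pgr), -0.41 to 0.77 (Tnfsf11) and -0.94 to 0.85 (Cited1). Comparisons that name the same stage share its arrays.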

How the data were processed

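The authors deposited 1 table of log2 expression values for 36685 probe sets in 33 arrays, made with RMA in Affymetrix Expression Console per the submitters' processing notes; RMA corrects background, quantile-normalizes and summarizes probes. The deposited log2 values ran from 2.41 to 14.23, with array medians of 6.78 to 6.96, and were used unchanged. No 2 arrays held identical values (highest correlation 0.993). No depth exists for arrays, and their number limits the precision. Probe sets were named through the platform annotation: 18511 had 1 symbol, 575 several and 17599 none. For a gene with more than 1 probe set (291 genes), the one with the highest mean was used. Genes above 7.71 in at least 3 arrays were tested (10840 genes). The model, fitted with limma 3.58.1 in R 4.3.3, had a term for each stage and for batch (25 residual degrees of freedom) and an intensity trend, and was tested on simulated data. Correlations used 100000 permutations (scipy 1.17.1). The members, the gene lists and the named panel were chosen with earlier results of these data known. Named beside the members were a fixed panel, up to 3 called genes of smallest adjusted p per pathway list and comparison, and the 5 genes most correlated with each member. Alternatives changed the batch term, filter, normalization, weights, covariates and arrays included.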

Additional observations from a re-analysis of the deposited data

Results flagged for a closer look

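Outlying arrays were sought by Dixon's rule in 95 groups of 4 to 10 arrays of a gene, and 6 stood out, where chance gives about 1 in 20 groups. Among the members this was Esr1 in peri-pubertal replicate 5, at 8.72 where the other arrays lay at 9.26 to 9.43; that array is of batch 2. Areg was high in pre-pubertal replicate 8, at 8.56 against 6.56 to 7.28, the array that also held the highest Pgr (7.03), the highest Cited1 (10.73) and the lowest Tnfsf11 (6.69) of its stage. Areg was also high in pubertal replicate 1, at 8.91 against 7.27 to 7.61, the array with the highest Pgr (10.99) and the lowest Cited1 (8.97) of its stage. The other 3 were Esr2 in pre-pubertal replicate 4 (5.50, others 5.88 to 6.14), Nrip1 in peri-pubertal replicate 2 (10.06, others 10.41 to 10.48) and Calca in parous replicate 1 (6.95, others 6.41 to 6.51).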

How the results depend on the processing

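Of the members' differences under all alternatives, 1137 kept their side of the threshold, 7 lost it, 33 gained it and 1 called difference reversed, Cited1 at day 42 with the luminal mean as covariate (-0.14). For peri-pubertal against pre-pubertal glands the count of called members was 3, with Tnfsf11 included although its passing of the filter rested on the pre-pubertal stage. The count was 1 (Pgr) with the luminal or the T cell mean as covariate. Of all 10840 genes those covariates left 290 and 1701 called, against 3518 in the main fit. The member count was 2 in batch 1 only (Pgr, Tnfsf11) and in batch 2 only (Pgr, Cited1), where 2435 and 641 genes were called. It was also 2 with the adipocyte mean (Pgr, Tnfsf11) and with the filter at the 75th percentile, which Tnfsf11 did not pass (Pgr, Cited1). It was 3 whichever array was left out. For pubertal against peri-pubertal and nulliparous against pubertal glands it was 0, and 1 with array weights. Array weights raised the calls over all genes from 133 to 1647 and from 465 to 1983 in these comparisons. For lactation against puberty the member count was 1 (Cited1), where 4422 of all genes were called. It was 2 with batch as a random block or with the luminal or T cell mean as covariate (Cited1, Pgr), and 2 with the adipocyte mean (Cited1, Tnfsf11). Over all genes these settings called 4180, 3946, 5068 and 2668, in that order. Leaving out 1 array gave 1 to 2 members. For parous against lactating glands the member count was 0, where 3587 of all genes were called. It was 2 without a batch term or with the luminal or T cell mean. It was 1 with batch as a random block, the filter at the 75th percentile, array weights or the adipocyte mean. In those of these settings that tested 10840 genes, 2934 to 4013 were called. Leaving out 1 array gave 0 to 2 members. No paired analysis was possible because the labels give no replicate numbers shared between stages. Restricting parous against lactation to those groups could not be fitted. The number of arrays and the low signal of Tnfsf11, pre-pubertal Pgr and Cited1 in lactation limit what can be detected.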
